A study of Danio rerio with 23 samples.

Results

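CRTAC1, cartilage acidic protein 1, was represented in the zebrafish retina count table by 2 genes that carry the same symbol, ENSDARG00000059826 and ENSDARG00000102517. Both are listed here in full, as 2 of the 25281 genes of the table and 2 of the 22503 that passed the filter on low counts. The pair was chosen by its levels in light-damaged against control retinae, 1 gene with a large difference and 1 without, so the levels of these 2 genes in that contrast are given as a description and without a test.

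CRTAC1 is a secreted glycoprotein of the extracellular matrix that was first described in human chondrocytes. It carries FG-GAP repeats, which are also found in integrin alpha chains, and an EGF-like calcium-binding domain. In the mouse the protein is also known as LOTUS, an antagonist of the Nogo receptor, through which the myelin ligands Nogo (RTN4), MAG and OMG restrain axon growth.

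The libraries compared light-induced retinal damage (LIRD) with controls (CTRL) to ask which transcripts change in the retina after bright light. Of 23 samples in the labels, 17 had a column in the table, 9 CTRL and 8 LIRD, and the other 6 were not analysed here. The study's methods state that outliers in a principal component analysis, which did not group with their replicates, were left out. Its figures also count 9 CTRL and 8 LIRD libraries. Whether the 6 samples are those outliers is not stated. If so, the libraries here were kept for likeness within a condition, and the spread between them may be understated. The sources describe the fish in different ways. The study's methods give pigmented larvae at 4 days post fertilization, from wild-type TU fish or a line carrying fli:gal4 and UAS:mCherry transgenes, light of 50000 lux for 3.5 h, 48 h of recovery in the dark, and a pool of 50 retinae per library. The GEO labels give adult fish, 15000 lux for 24 h, controls in standard light, and dissection straight after the light. Which genotype went into which library is not given in the sources used here, and the 2 descriptions of age, dose and time could not be reconciled from the files.

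Total counts per library ranged from 70932504 to 150347385. The closest pairs of libraries were LIRD 5 with LIRD 11 and CTRL 3 with CTRL 11, with chi-square values of 11.97 and 14.98 per degree of freedom over genes, whereas the next pair stood at 73.9. Both pairs differed by more than sampling noise and were kept apart as the labels have them, but whether the 2 libraries of a pair share a source sample cannot be told from the files. With each pair added up, the LIRD minus CTRL value of ENSDARG00000059826, described further on, was 1.43 on the log2 scale. After the pair at 73.9, CTRL 1 with CTRL 2, the closest was CTRL 4 with LIRD 10 at 86.3, which crosses the conditions. The LIRD library closest to LIRD 10 was LIRD 6, at 112. The libraries were split here by index number into 2 series. The lower-numbered one holds CTRL 1, CTRL 2, LIRD 1 and LIRD 2 (7 to 10, CTRL and LIRD in turn). The higher-numbered one holds the remaining 13 libraries, where all CTRL numbers (11 to 20) precede all LIRD numbers (22 to 29). The split is a reading of these numbers and of the CTRL library names, and the LIRD library names do not show it. Markers of retinal cell types were present in every library, with amacrine genes summing to between 1415 and 2251 CPM, the count scaled to library size. Cone genes summed to between 6631 and 13780 CPM. Markers of tissues outside the retina were also present in every library. Their sums ran from 7355 to 22090 CPM for surface epithelium, 6404 to 17130 CPM for liver and 3953 to 11890 CPM for skeletal muscle. Those of exocrine pancreas ran from 738 to 8301 CPM and those of lens from 678 to 4689 CPM. The sums depend on the genes of each list and give no share of tissue.

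ENSDARG00000059826 was higher in LIRD than in CTRL retinae. In CTRL the lowest, median and highest levels were 9.64, 13.1 and 15.5 CPM, and in LIRD they were 22.3, 33.1 and 60.1 CPM. The 2 conditions did not overlap, and the lowest LIRD library (LIRD 10) stood 1.44 times above the highest CTRL library (CTRL 5). The means were 12.8 ± 1.88 CPM (SD, n = 9) in CTRL and 35.4 ± 12.5 CPM (SD, n = 8) in LIRD, and the fitted difference was 1.47 on the log2 scale (SE 0.17), which is 2.78-fold.

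ENSDARG00000102517 had no such separation. Its lowest, median and highest levels were 4.03, 5.68 and 6.38 CPM in CTRL and 3.18, 5.13 and 7.25 CPM in LIRD. Of the 8 LIRD libraries, 4 lay within the CTRL range, 2 lay above every CTRL library (LIRD 6 and LIRD 10) and 2 lay below every CTRL library (LIRD 2 and LIRD 4). The means were 5.41 ± 0.827 CPM (SD, n = 9) in CTRL and 5.10 ± 1.36 CPM (SD, n = 8) in LIRD, with a fitted difference of -0.09 on the log2 scale (SE 0.15).

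**Figure D1:**
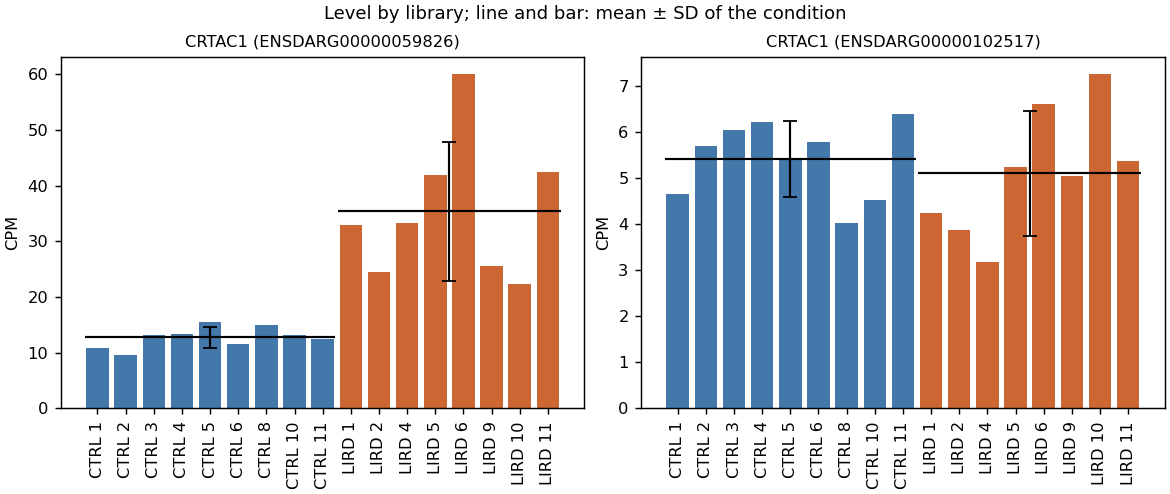
Level of each CRTAC1 gene in CPM (vertical axis, from 0, with a scale of its own in each panel) in 17 libraries (horizontal axis); bars are libraries, blue CTRL and orange LIRD, and the black line and error bar give the mean ± SD of the condition. All 8 LIRD bars of ENSDARG00000059826 are taller than the highest CTRL bar of 15.5 CPM, and the bars of ENSDARG00000102517 overlap between the conditions.

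As background, 9 of the 22503 genes tested (0.04%) passed a false discovery rate (FDR) under 0.05 with a change over 1.5-fold in edgeR's quasi-likelihood test, and 1719 (7.64%) had an unadjusted p under 0.05. Every LIRD library lay above every CTRL library for 14 genes (0.0622%), ENSDARG00000059826 among them. Since this contrast chose the pair, nothing is read from its place among these genes. The count of 9 moved with single libraries, from 7 to 39 with 1 left out, and it rose to 14 without CTRL 8 and 39 without LIRD 10. It was 78 by DESeq2.

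The proportion of the 2 genes differed between the conditions accordingly. The raw count of ENSDARG00000059826 divided by that of ENSDARG00000102517 ranged from 1.70 to 3.73 in CTRL, with a median of 2.17, and from 3.07 to 10.5 in LIRD, with a median of 7.85. The ranges overlapped through 1 library of each condition, LIRD 10 at 3.07 and CTRL 8 at 3.73. The mean log2 ratio was 1.24 ± 0.35 (SD, n = 9) in CTRL and 2.76 ± 0.56 (SD, n = 8) in LIRD, a difference of 1.53. Transcript lengths were not used, so the ratio serves to compare libraries and gives no order of abundance between the genes. How reads matching both genes were counted is not given in the sources used here. In bulk retinae, a change in the number of cells of a type and a change in RNA per cell cannot be told apart.

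**Figure D2:**
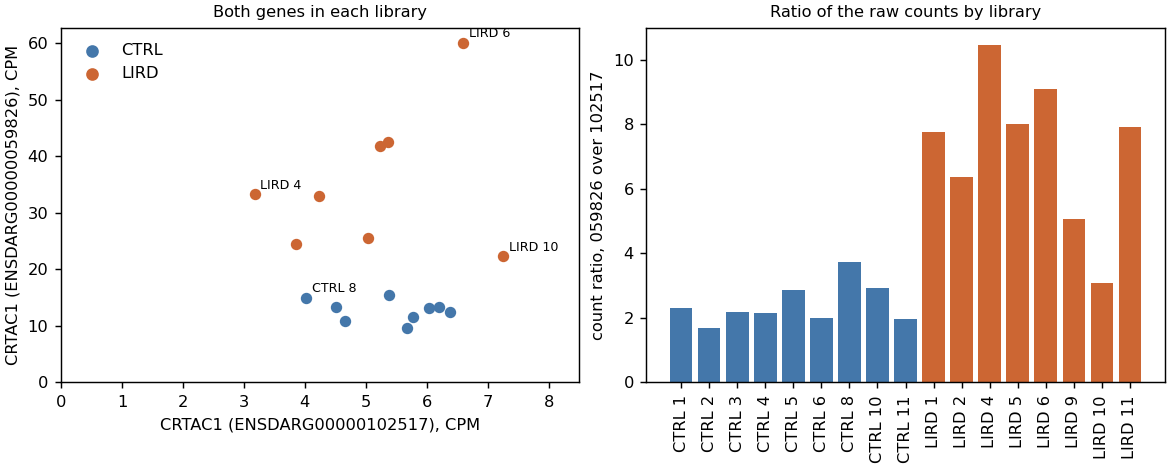
The left panel plots ENSDARG00000059826 against ENSDARG00000102517 in CPM, 1 point per library, blue CTRL and orange LIRD; the right panel gives the ratio of their raw counts in each library. The LIRD points lie above the CTRL points on the vertical axis and overlap them on the horizontal one, and LIRD 10, with a ratio of 3.07, is the LIRD library that reaches into the CTRL range.

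For both genes the LIRD libraries spread farther than the CTRL libraries, and in CTRL the spread of the 2 genes was alike. For ENSDARG00000059826 the SD of log2 CPM was 0.22 in CTRL and 0.48 in LIRD, and its coefficient of variation was 14.7% in CTRL and 35.4% in LIRD. Counting alone would give 2.695% and 1.666%, since its raw counts ran from 758 to 1942 in CTRL and from 2252 to 7198 in LIRD. For ENSDARG00000102517 the SDs were 0.23 in CTRL and 0.39 in LIRD on the log2 scale, and the coefficients of variation 15.3% and 26.7%. Its raw counts ran from 327 to 895 in CTRL and from 338 to 863 in LIRD. Differences in spread were not tested.

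No relation between the levels of the 2 genes was detected among libraries of the same condition. Within CTRL, Pearson's r between the log2 CPM of the 2 genes was -0.237 (exact permutation p = 0.538) and Spearman's rho was -0.217 (exact permutation p = 0.581). Within LIRD, r was 0.192 (exact permutation p = 0.645) and rho was 0.167 (exact permutation p = 0.703). All tests were two-sided, and the adjusted p over both values of r was 0.645. Without the 2 libraries farthest from the median, r was -0.529 in CTRL and 0.387 in LIRD. The sign rested on single libraries, since r was 0.069 in CTRL without CTRL 8 and -0.171 in LIRD without LIRD 6.

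Between the library series, ENSDARG00000059826 averaged 10.2 CPM in the 2 lower-numbered CTRL libraries and 13.5 CPM in the other 7 (exact permutation p = 0.0278, the smallest that this design allows, and 0.111 after adjustment over 4 comparisons). The LIRD means were 28.8 and 37.6 CPM (exact permutation p = 0.393). ENSDARG00000102517 averaged 5.17 and 5.48 CPM in CTRL (exact permutation p = 0.778) and 4.05 and 5.44 CPM in LIRD (exact permutation p = 0.286). The LIRD minus CTRL value of ENSDARG00000059826 was 1.51 on the log2 scale within the lower-numbered series and 1.48 within the higher-numbered one.

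Genes that followed each CRTAC1 gene among libraries of the same condition were ranked by Pearson's r of the deviations of log2 CPM from the condition mean. The ranking took in 19161 other genes with a mean of at least 1 CPM, over 17 libraries that share their depth and tissue makeup across genes, so r is given as a description. For ENSDARG00000059826 the closest was epdl1, an ependymin-like gene, with r = 0.900. In CTRL its lowest, median and highest levels were 52.8, 60.3 and 81.4 CPM, and in LIRD 51.4, 73.0 and 112 CPM. Both genes were highest in LIRD 6 and lowest among the LIRD libraries in LIRD 10. The correlation with epdl1 was 0.982 within LIRD and 0.540 within CTRL, and it stayed between 0.866 and 0.936 with any single library left out.

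The second was c4, a complement component, with r = 0.865, at 0.827 within CTRL and 0.874 within LIRD. It was followed by TPP1 (0.814), a lysosomal peptidase, NEU1 (0.805), a sialidase, and KLF12 (0.805), a zinc-finger transcription factor. The remaining genes of the leading 10 were DENND3 (0.799), a Rab exchange factor, GALC (0.798), which breaks down galactosylceramide, PRKCD (0.787), a protein kinase C, ITPRID2 (0.786) and CTSC (0.785), the cathepsin C protease. KLF12 had the highest r of these 10 within CTRL, at 0.951. Among LIRD libraries the 10 values ran from 0.773 to 0.982, and among CTRL libraries from 0.233 to 0.951. With any single library left out, the lowest r of each of the 10 lay between 0.606 (CTSC) and 0.866 (epdl1). The lowest values of r belonged to si:zfos-128g4.1 (-0.827), znf1021 (-0.754) and si:dkey-240n22.10 (-0.753).

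None of these 10 genes passed the test in LIRD against CTRL. Their log2 fold changes ran from -0.04 for DENND3 to 0.36 for TPP1 in edgeR, with FDRs of 0.400 to 0.988. An unadjusted p under 0.05 was found for 3 of the 10, against 7.64% of all genes tested in either direction. The mean of epdl1 was 61.9 ± 8.47 CPM (SD, n = 9) in CTRL and 77.5 ± 22.7 CPM (SD, n = 8) in LIRD, with an FDR of 0.630 in edgeR. Any gene outside the leading 10 has a lower r over the 17 libraries by construction. Other genes with higher LIRD means had correlations with ENSDARG00000059826 of 0.426 (ptgdsb.1), 0.474 (soul5) and -0.300 (fthl28) over these deviations. Within LIRD they were 0.378, 0.493 and -0.492. Within CTRL they were 0.648, 0.599 and -0.032, so that ptgdsb.1 and soul5 lay above the 0.540 of epdl1 there.

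Many more genes followed ENSDARG00000102517 closely. Its r was above 0.8 for 1581 genes and below -0.8 for 1366, whereas ENSDARG00000059826 had 5 and 1. The first principal component of the deviations held 49.7% of their variance over genes, and its absolute correlation was 0.857 with ENSDARG00000102517 and 0.293 with ENSDARG00000059826. The 10 closest genes had r of 0.946 to 0.978. CCDC85A led at 0.978 (0.948 within CTRL and 0.991 within LIRD). In CTRL its lowest, median and highest levels were 15.5, 18.6 and 20.9 CPM, and in LIRD 12.5, 17.02 and 23.4 CPM, so that the conditions overlapped. Both genes were lowest in LIRD 4 and highest in LIRD 10.

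The next were pip4k2ab (0.973), a phosphoinositide kinase, NAT16 (0.959), an N-acetyltransferase, fhdc1 (0.955), a formin, and map3k22 (0.955), a MAP kinase kinase kinase. CNTNAP5 (0.953), a neural adhesion protein, MSI2 (0.949), an RNA-binding protein, kcnj21 (0.949) and KCNAB1 (0.946), a potassium channel and a channel subunit, and CRHR1 (0.946), the corticotropin-releasing hormone receptor, completed the 10. The lowest values of r belonged to MANEA (-0.946), an endomannosidase, POFUT1 (-0.945), which adds O-fucose to Notch receptors, and stxbp3 (-0.943), a syntaxin-binding protein. None of the 10 closest genes passed the test in LIRD against CTRL, with log2 fold changes of -0.32 to -0.04 and FDRs of 0.681 to 0.951 in edgeR. An unadjusted p under 0.05 was found for 0 of them, against 7.64% of all genes tested.

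**Figure D3:**
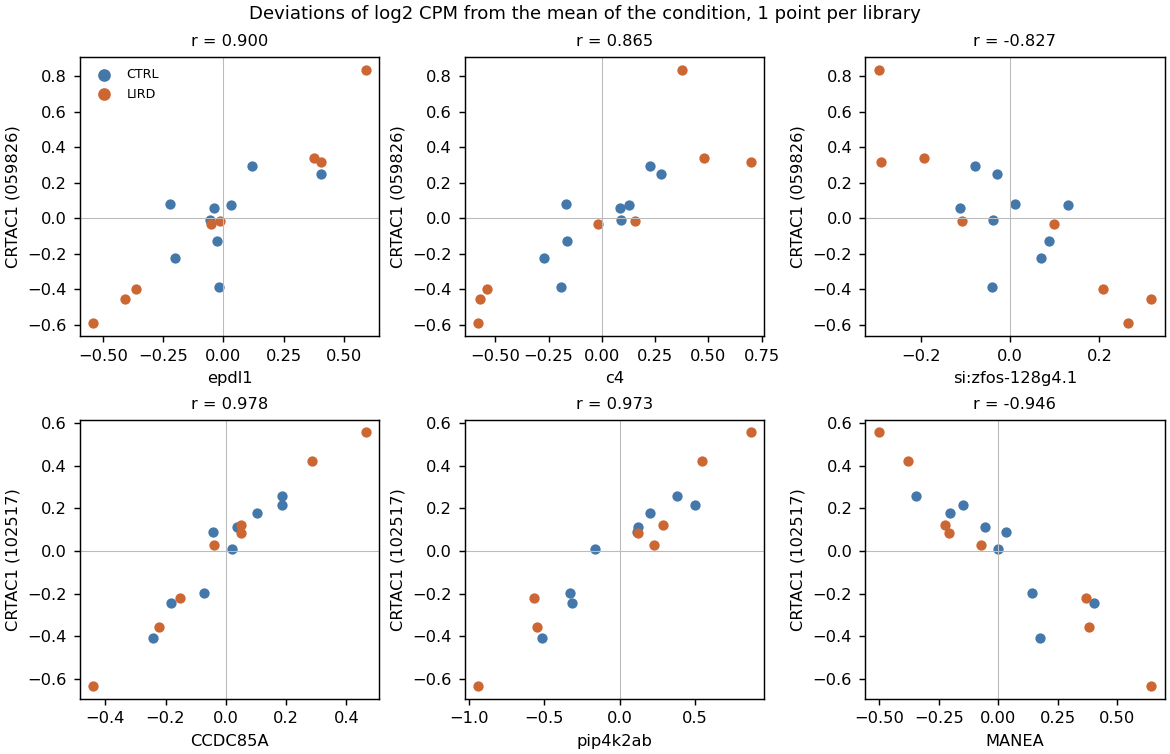
Deviations of log2 CPM from the mean of the condition for the 2 genes with the highest r and the gene with the lowest r (horizontal axes), against ENSDARG00000059826 (vertical axes, upper row) and ENSDARG00000102517 (lower row), 1 point per library, blue CTRL and orange LIRD. In the upper row the LIRD libraries spread farther than the CTRL libraries along the line with epdl1 (r = 0.900), and in the lower row both conditions spread along the line with CCDC85A (r = 0.978).

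The Nogo receptor pathway, listed as 30 genes by role, had 0 genes that passed the test in LIRD against CTRL in edgeR, 0 with an unadjusted p under 0.05, and 0 by DESeq2 or limma-voom. The shares of all genes tested in edgeR were 0.04% and 7.64%. With so few genes passing at all, a count of 0 in a list of this size is not read as a result about the pathway. The median log2 fold change of the list was -0.03, against 0.02 over all genes tested. Of the ligands, rtn4a averaged 154 ± 16.7 CPM in CTRL and 161 ± 17.9 CPM in LIRD (SD, n = 9 and n = 8, as for the values that follow), and rtn4b 95.48 ± 15.98 and 100.9 ± 26.01 CPM. The myelin-associated glycoprotein gene mag stood at 37.6 ± 4.53 and 34.8 ± 4.62 CPM, and the 2 OMG genes had log2 fold changes of -0.02 and -0.05.

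The Nogo receptor gene RTN4R averaged 41.3 ± 3.06 CPM in CTRL and 40.2 ± 5.00 CPM in LIRD (log2 fold change -0.04, SE 0.08). Its relatives had log2 fold changes of -0.07 (SE 0.16) for RTN4RL1 (ENSDARG00000007856), -0.10 (SE 0.09) for RTN4RL1 (ENSDARG00000098528), -0.22 (SE 0.16) for rtn4rl2a and -0.05 (SE 0.11) for rtn4rl2b. All 5 receptor values were below 0 and none of them passed the test, with FDRs of at least 0.697 in edgeR. The co-receptors of the LINGO1, NGFR and TNFRSF19 genes ranged from -0.25 to 0.05. The 2 lgi1 genes, whose product also binds the Nogo receptor, stood at 0.01 (lgi1a) and -0.10 (lgi1b).

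**Figure D4:**
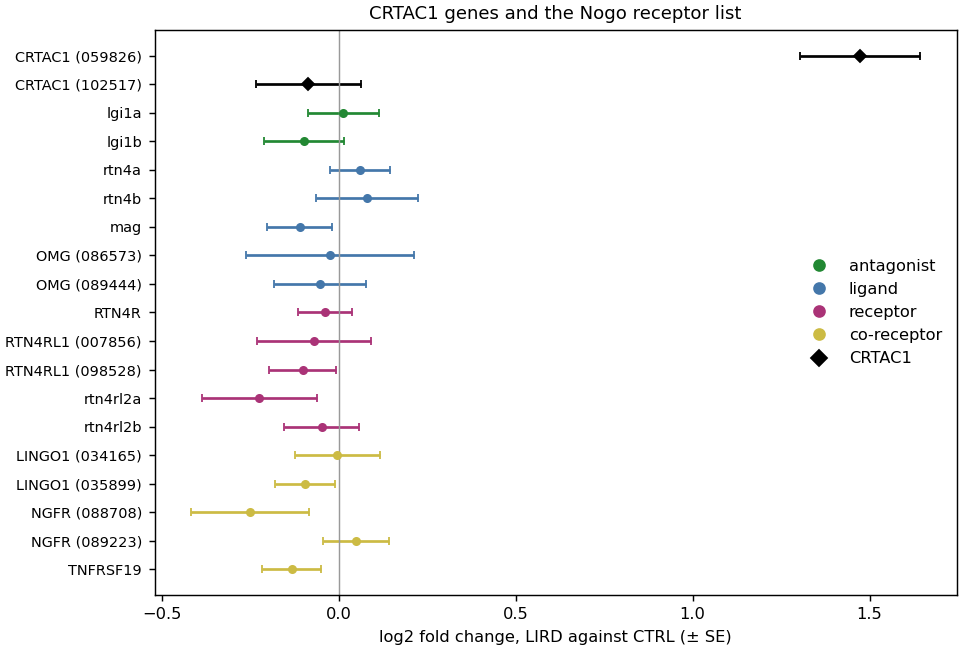
Log2 fold change in LIRD against CTRL with its SE (horizontal axis) for the 2 CRTAC1 genes (black diamonds) and 17 ligand, receptor, co-receptor and antagonist genes of the Nogo receptor list (circles, coloured by role), 1 gene per row. ENSDARG00000059826 lies at 1.47, and the 17 list genes lie between -0.25 and 0.08.

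Other lists held 0 genes past the test as well, where 0.04% of all genes tested passed. These were 22 integrin alpha and other FG-GAP genes (1 higher and 1 lower at an unadjusted p under 0.05 in edgeR, median log2 fold change -0.05), 37 cartilage matrix and regulator genes (1 higher, 0 lower, median -0.08) and 19 retinal matrix genes (2 higher, 4 lower, median -0.24). The 4 lower retinal matrix genes were 2 symbols with 2 gene IDs each, and the 2 higher ones shared 1 symbol. Of the lower ones, 2 were at low levels, with CTRL means of 0.279 and 0.632 CPM. Of all genes tested, 7.64% had an unadjusted p under 0.05 in either direction, and these lists were not tested against that share. DESeq2 and limma-voom counts were computed for the Nogo receptor list and over all genes, not for these lists.

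Markers of other cell types were read beside ENSDARG00000059826. Of 20 marker lists, 0 genes passed the test, against 0.04% of all genes tested. The lists with the most genes at an unadjusted p under 0.05 in edgeR were liver (10 of 12 higher), microglia and macrophage (9 of 13 higher), erythroid (6 of 9 higher) and cone (5 of 11 lower, 1 higher). The share of all genes tested at that p was 7.64% in either direction, and the lists were not tested against it. Summed levels of the liver list were 6404 to 10230 CPM in CTRL and 8403 to 17130 CPM in LIRD, those of the microglia and macrophage list 505 to 698 and 601 to 933 CPM, and those of the erythroid list 349 to 693 and 572 to 1768 CPM. The cone list summed to 6725 to 13780 CPM in CTRL and 6631 to 13250 CPM in LIRD. No gene of these lists was at or under 3 counts in every library. Among libraries of a condition, Pearson's r of ENSDARG00000059826 with the list scores was 0.132 in CTRL and 0.062 in LIRD for liver. It was -0.431 and 0.310 for microglia and macrophage, and -0.483 and 0.311 for erythroid. For cone it was -0.001 in CTRL and -0.821 in LIRD (exact permutation p = 0.0136, adjusted p = 0.0932). None of these passed adjustment. The part of these cell types in the level of ENSDARG00000059826 was not tested.

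Within a condition, 1 of 80 correlations between a CRTAC1 gene and a marker list score passed adjustment, that of ENSDARG00000059826 with the lens list in CTRL. Pearson's r was 0.954 (exact permutation p = 0.000116, adjusted p = 0.00926) and Spearman's rho 0.950 (exact permutation p = 0.000353) over 9 libraries, and r was 0.881 without the 2 libraries farthest from the median. The oligodendrocyte list (r = 0.892, adjusted p = 0.0539 by exact permutation) and the brain glia and neuron list (r = 0.859, adjusted p = 0.0618 by exact permutation) came next for the same gene in CTRL and did not pass. Whether the genes of the latter list mark brain rather than retina was not tested. The lens genes summed to between 727 CPM in CTRL 2, which also had the lowest level of ENSDARG00000059826, and 4689 CPM in CTRL 5, which had the highest. In LIRD r was 0.042 (exact permutation p = 0.927), with sums of 678 to 4478 CPM; the difference between the 2 values of r was not tested. The correlation in CTRL was 0.899 over the 7 libraries of the higher-numbered series and 0.922 to 0.981 with 1 CTRL library left out. No relation of the 80 passed adjustment without CTRL 2, where r was 0.922, or without CTRL 5, where it was 0.938.

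For ENSDARG00000102517 none of the 40 correlations passed adjustment within a condition. The closest were with the liver list in CTRL (r = -0.878, exact permutation p = 0.00202, adjusted p = 0.0539) and with the skeletal muscle list in CTRL (r = -0.849, adjusted p = 0.0727 by exact permutation) and in LIRD (r = -0.868, adjusted p = 0.0760 by exact permutation). When the deviations of both conditions were pooled, 7 of 40 relations passed, all of them with ENSDARG00000102517. These were skeletal muscle (r = -0.862), pigment epithelium with other pigment cells (-0.811), surface epithelium (-0.781), Müller glia (-0.700) and oligodendrocytes (-0.698) on the negative side. On the positive side were amacrine (0.735) and bipolar cells (0.672). The number of relations past adjustment within conditions moved with single libraries, from 0 without CTRL 2 or CTRL 5 to 2 without CTRL 6 or CTRL 8, 4 without LIRD 1 or LIRD 4 and 9 without LIRD 10.

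**Figure D5:**
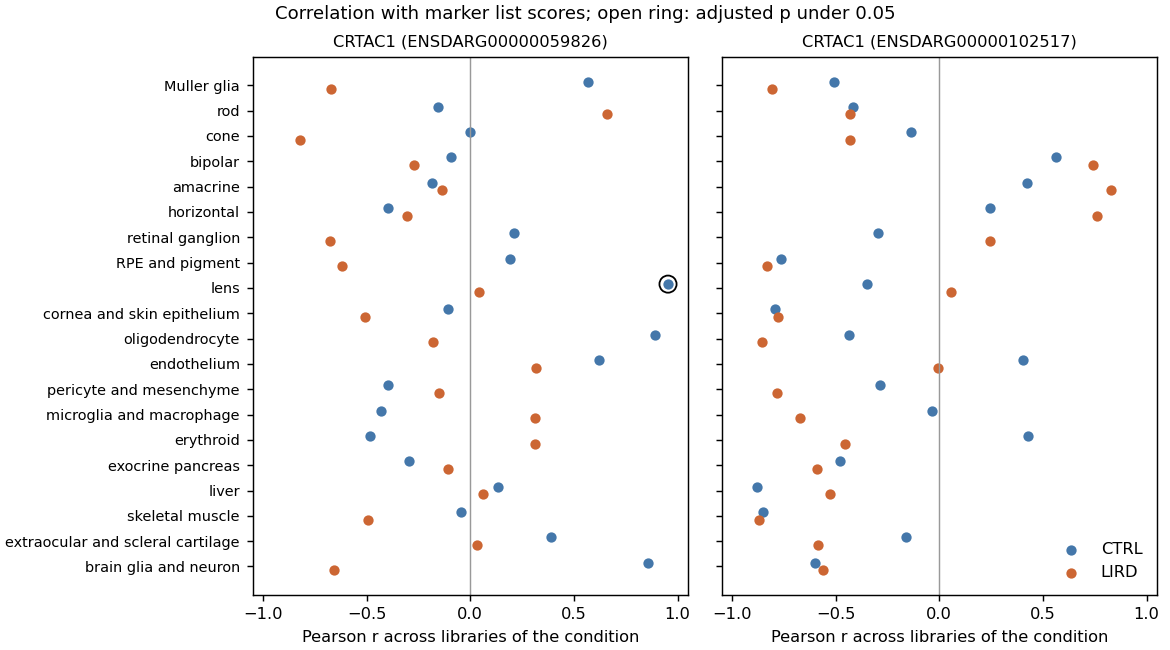
Pearson's r (horizontal axis) of the log2 CPM of each CRTAC1 gene with the score of 20 marker lists (rows), across the 9 CTRL (blue) and the 8 LIRD (orange) libraries; an open ring marks an adjusted p under 0.05. The single ring belongs to the lens list in CTRL with ENSDARG00000059826 (r = 0.954), and the LIRD point of the same row is at 0.042.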

How the data were processed

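Poly(A) RNA of retinae was sequenced with a strand-specific kit. Reads were trimmed by the authors (Trimmomatic 0.39), mapped by STAR on the GRCz11 build and assigned to genes by featureCounts, and the deposited table holds raw counts. The submitters' processing notes name STAR 2.7.9a and Subread 2.0.1, whereas the study's methods give a later version of each. Columns were assigned to samples through the labels. Symbols were present for 93.0% of the genes.

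The counts were analysed in R 4.3.3 with edgeR 4.0.16 (filterByExpr, TMM, robust quasi-likelihood fit, condition as the only term) and Benjamini-Hochberg adjustment over all 22503 genes tested. Genes were called at FDR under 0.05 and over 1.5-fold. The SE of a log2 fold change was derived as its absolute value divided by the square root of the quasi-likelihood F statistic. CPM are TMM-scaled, and log2 CPM used a prior count of 2. DESeq2 1.42.0 and limma-voom (limma 3.58.1) were alternatives, besides other normalizations, filters, library series, a replicate block and each library left out. The fits were tested on simulated data. Permutation tests were exact and two-sided within conditions. Pooled deviations used 100000 permutations. Marker scores were the mean of z-scored log2 CPM.

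The members, lists and tests were chosen with earlier results of these data known. Named genes were both CRTAC1 genes, the Nogo receptor list by role, called genes of other lists, the 10 genes with the highest r and the 3 with the lowest for each CRTAC1 gene, the 3 nearest genes per side, and ptgdsb.1, soul5 and fthl28; the nearest genes and part of the Nogo receptor list are not reported here. The labels call the libraries biological replicates without naming clutches or animals, so p-values measure only the spread between these libraries.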

Additional observations from a re-analysis of the deposited data

Results flagged for a closer look

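Among 45 named genes, 5 of the 90 groups of libraries tested held a library far from the rest by Dixon's criterion, and chance flags about 1 group in 20. None of them was a CRTAC1 gene. The receptor gene rtn4rl2b stood at 11.9 CPM in LIRD 4, against 17.8 CPM in the nearest LIRD library. The co-receptor gene LINGO1 (ENSDARG00000034165) was at 17.7 CPM in CTRL 10, with the nearest CTRL library at 21.2 CPM. Of the genes with the highest r to ENSDARG00000059826, epdl1 was at 81.4 CPM in CTRL 8 (nearest 66.8 CPM) and CTSC at 62.1 CPM in LIRD 6 (nearest 41.1 CPM). Of those with the lowest r, znf1021 was at 0.849 CPM in CTRL 8 (nearest 1.16 CPM). LIRD 6 was also the library with the highest level of ENSDARG00000059826.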

How the results depend on the processing

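The LIRD minus CTRL values of ENSDARG00000059826, of ENSDARG00000102517 and of their difference, which chose the pair and so carry no test, ranged from 1.32 to 1.55, from -0.18 to -0.01 and from 1.47 to 1.72 on the log2 scale with 1 library left out. Within the lower-numbered series of 2 against 2 libraries, ENSDARG00000102517 stood at -0.34 and the difference at 1.85. Within the higher-numbered series they stood at -0.008 and 1.49. The difference of the fitted fold changes over all libraries was 1.56. This alternative and the lens correlation with libraries left out were chosen after seeing the data.

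The number of genes called, 9 in edgeR, was 78 with DESeq2, 15 with limma-voom, 14 after requiring 10 counts of a gene in each library, 17 with the library series as a covariate, 5 with nearly alike libraries added up, 4 in the higher-numbered series, 3891 in the lower-numbered series of 2 against 2 libraries, and 7 to 39 with 1 library left out (14 without CTRL 8, 39 without LIRD 10). Replicate numbers shared by CTRL and LIRD were not taken as pairs, since the labels give no shared source. The correlations of their deviations ran from -0.560 to 0.416 and were above 0.1 in 5 of 7 pairs. In 4 of 7 the CTRL library correlated best, out of 8 LIRD libraries, with the one of its own number. A random choice among 8 LIRD libraries would hit the own number 1 time in 8. The values were not tested against that rate and do not settle whether the numbers mark pairs. With the numbers as a replicate block, edgeR called 0 genes, 1328 had an unadjusted p under 0.05, and ENSDARG00000059826 stood at 1.51. The Nogo receptor list had 3 of its 30 genes called in the lower-numbered series, where 3891 genes were called in all, so the 3 are not read as a result about the list. It had 0 called genes with any 1 library left out.

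The correlation of the 2 genes was 0.091 with deviations pooled over both conditions. With 1 library left out it ranged from -0.413 to 0.069 within CTRL (0.069 without CTRL 8). Within LIRD it ranged from -0.171 (without LIRD 6) to 0.667 (without LIRD 10). Marker list relations past adjustment numbered 3 in the higher-numbered series, 7 with pooled deviations and 0 to 9 with 1 library left out. The cause of these changes was not tested.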
